A study of Mus musculus with 12 samples.

Results

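The genes described here are 10 receptor-type tyrosine phosphatases, chosen by a list of symbols from the 23893 genes of the count table. They are Ptprd, Ptprf and Ptprs of type IIa, Ptprk, Ptprm and Ptprt of type IIb, Ptprg and Ptprz1 of type V, Ptprn2 of type VIII and Ptpro of type III. All 10 had counts and averaged at least 1 CPM, where CPM is a gene's count scaled to the same library size in every library, after edgeR's TMM adjustment of library sizes. The other 11 receptor-type and 17 non-receptor tyrosine phosphatase genes searched for were used for comparison. All but Ptprq had counts.

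RNA was sequenced from 12 cultures of mouse cortical neurons, 3 in each of 4 groups. The cultures came from mouse embryos at E13.5-15.5, and a lentivirus was added on day 3 in vitro (DIV 3). WT cells received a virus expressing the fluorescent protein tdTomato from the CaMKIIα promoter, and Top1 cKO cells received one that also expresses CRE recombinase from this promoter. The study's methods describe both genotypes as Top1 fl/fl with loxP sites around exon 3 of Top1, whereas the labels call the tdTomato cultures wild-type and the strain C57BL6. Between 85 and 90% of cells were transduced according to the labels, and CaMKIIα limits expression to neurons, so that Top1 cKO cultures also hold cells that keep Top1. Exposure to topotecan (Topot, 300 nM) or to its vehicle (Veh, DMSO at 0.003%) began at DIV 15, and harvest followed after 3 days. Topotecan holds the enzyme TOP1 on DNA that it has cut, whereas CRE removes the floxed exon. There are thus 2 WT groups (WT-Veh and WT-Topot) and 2 groups with CRE (Top1 cKO-Veh, Top1 cKO-Topot), and comparing them asks how far the drug and the deletion each changed these genes, and whether the drug acted where Top1 was deleted.

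Libraries held 1730164 to 4583777 counts. Top1 itself had 117.0, 163.5 and 123.8 CPM in WT-Veh and 129.4, 139.7 and 130.2 CPM in WT-Topot, and in the Top1 cKO groups 30.1, 44 and 27.1 CPM with vehicle and 29.1, 37.5 and 28.4 CPM with topotecan, so that no library went against its label. Top1 was lower in Top1 cKO-Veh than in WT-Veh (log2 fold change −1.98, SE 0.233, adjusted p = 0.00119), with an adjusted p of 0.0143 under a filter on low counts and 0.0104 without replicate 2 of WT-Veh. Neuronal markers summed to between 3896 and 5413 CPM over all libraries. After topotecan in WT cells 1 of these 6 genes was lower and 0 higher, and 3 were lower and 2 higher with libraries paired by replicate number (the replicate block). Interneuron markers summed to 769.2 to 1719 CPM in WT-Veh and 523.8 to 969.5 in WT-Topot, and in the Top1 cKO groups to 1172 to 1367 with vehicle and 891.4 to 1292 with topotecan. Their median log2 fold change in WT-Topot was −1.02, and of the 6 genes 0 were called, beside 4 lower and 1 higher both at an unadjusted p under 0.05 and with the replicate block. Of the 13720 genes averaging 1 CPM or more, 1609 were lower and 1324 higher at that p. The part of interneurons in the results below was not tested. Microglial markers summed to between 2.88 and 9.64 CPM in WT-Veh and proliferation markers to at most 5.7 CPM in any library. Astrocyte markers were present in every library, at 309.1 to 2999 CPM. In bulk RNA, fewer cells of a type and less RNA per cell cannot be told apart.

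Receptor-type tyrosine phosphatases are membrane proteins, and most have an adhesion-like outer part and a cytoplasmic part that removes phosphate from tyrosines. Type IIa members sit mainly on axons and presynaptic terminals, where they bind postsynaptic proteins and proteoglycans outside and liprins inside. Type IIb members bind the same molecule on the next cell and act on cadherin and catenin complexes, and type V members bind contactins through a domain that resembles carbonic anhydrase. Ptprn2 is an exception to that general description and lies in the membrane of dense-core vesicles. Ptpro dephosphorylates Eph receptors.

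The genes differ widely in genomic span, the distance from the first to the last annotated base (GENCODE vM1 on NCBIM37, the assembly that mm9 names). Ptprd is the longest at 2271 kb (chr4:75587142-77857865, minus strand). Ptprt spans 1139 kb (chr2:161347726-162486883, minus), Ptprn2 792.4 kb (chr12:117724193-118516640, plus), Ptprg 688.5 kb (chr14:12386046-13074555, plus), Ptprm 687.6 kb (chr17:67016188-67703799, minus) and Ptprk 522.6 kb (chr10:27794626-28317203, plus). The other 4 members are shorter than 500 kb, Ptpro with 212.3 kb (chr6:137200820-137413150, plus), Ptprz1 with 177.4 kb (chr6:22825502-23002916, plus), Ptprf with 83.19 kb (chr4:117880818-117964010, minus) and Ptprs with 64.06 kb (chr17:56551851-56615906, minus). Exons of the members add up to between 5.21 kb in Ptprn2 and 22.8 kb in Ptprd, and nearly all of the difference in span is therefore intron. Type IIa holds both the longest and the shortest member, whereas the 3 type IIb members are all over 500 kb.

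Start site sequences are shown for 6 members to let the type IIb members and Ptprn2, which are all long, be set beside Ptprf and Ptpro, which were not called in any comparison below. RefSeq windows of the GRCm38.p6 build were given for 9 members, and Ptprd was not among them. Each run is the 100 bases before the annotated start, read 5′ to 3′ on the gene's own strand, with the GC box (GGGCGG, or CCGCCC on the other strand) in capitals. They lie at chr10:28074720-28074819 (plus) for Ptprk, chr17:67354460-67354559 (minus) for Ptprm, chr2:162661148-162661247 (minus) for Ptprt, chr12:116485620-116485719 (plus) for Ptprn2, chr4:118291398-118291497 (minus) for Ptprf and chr6:137252199-137252298 (plus) for Ptpro.
Ptprk: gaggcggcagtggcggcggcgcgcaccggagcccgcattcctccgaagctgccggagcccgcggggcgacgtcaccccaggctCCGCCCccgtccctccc
Ptprm: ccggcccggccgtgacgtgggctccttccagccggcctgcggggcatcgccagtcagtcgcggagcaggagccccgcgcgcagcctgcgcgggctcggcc
Ptprt: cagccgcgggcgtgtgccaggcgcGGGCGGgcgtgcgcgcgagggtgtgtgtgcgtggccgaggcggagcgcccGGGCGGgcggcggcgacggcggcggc
Ptprn2: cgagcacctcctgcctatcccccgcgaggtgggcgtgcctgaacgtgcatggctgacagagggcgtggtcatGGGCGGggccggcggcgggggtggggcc
Ptprf: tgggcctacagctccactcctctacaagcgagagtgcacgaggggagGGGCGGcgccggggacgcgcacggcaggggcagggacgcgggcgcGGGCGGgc
Ptpro: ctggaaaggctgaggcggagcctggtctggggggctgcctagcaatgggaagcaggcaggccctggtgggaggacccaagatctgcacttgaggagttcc

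The 3 type IIb members had the starts richest in CpG of the members with a window. Over the 250 bases before the start, Ptprk held 38 CpG, Ptprm 37 and Ptprt 39, more than 98.1, 97.8 and 98.4% of the 32851 windows of this length, whose median was 6. The other windows ranged from 31 CpG at one of the 2 starts of Ptprg to 3 at Ptpro, with 15 at Ptprn2 and 18 at Ptprf. A GC box stood in the 250 bases of Ptprf, Ptprk, Ptprm, Ptprt, Ptprz1, Ptprn2 and 1 of the 2 Ptprs windows, and in 32.7% of all windows. The letters TATAAA, searched on both strands and held by 12.4% of all windows, occurred in none of the members' windows. The core of a cAMP response element (TGACG, both strands, 17.8% of all windows) occurred in those of Ptprk, Ptprm and Ptprg. None of the motifs contains another. Letters that match are a description of the sequence, not a bound site, and both called and uncalled members held a GC box.

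In vehicle-treated WT cells the members covered a wide range of expression per exon length. For this, CPM was divided by all exon bases of a gene in GENCODE vM1, whereas the counts were over RefSeq exons. That length is largest for Ptprd, 22.8 kb with 24 annotated transcripts, and dividing by it lowers the rank of this gene. Undivided, Ptprs had 439.0 CPM, Ptprn2 418.3, Ptprd 281.3 and Ptprf 184.3. Ptprn2 was highest with 80.3 ± 9.72 CPM per kb of exon (SD, n = 3), followed by Ptprs with 62.3 ± 8.21, and their libraries did not overlap. Ptprz1 (21.1 ± 10) and Ptprf (20.2 ± 5.33) came next and did not differ beyond their spread. Ptprg, Ptpro, Ptprk and Ptprd lay between 12.4 and 14.2 CPM per kb with overlapping libraries. Ptprt (4.33 ± 0.537) and Ptprm (1.96 ± 0.414) were lowest and stood apart from each other. After topotecan in WT cells Ptprs was highest at 60.9 ± 6.62 CPM per kb, and Ptprn2 had 9.47 ± 3.02, with libraries that overlapped those of Ptprz1 (11.4 ± 3.06) and Ptpro (10 ± 1.44). Together the 10 genes summed to 1893 ± 263.2 CPM in WT-Veh and 979.1 ± 110.5 in WT-Topot, and in the Top1 cKO groups 1495 ± 257.3 with vehicle and 1262 ± 167.0 with topotecan.

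**Figure D1:**
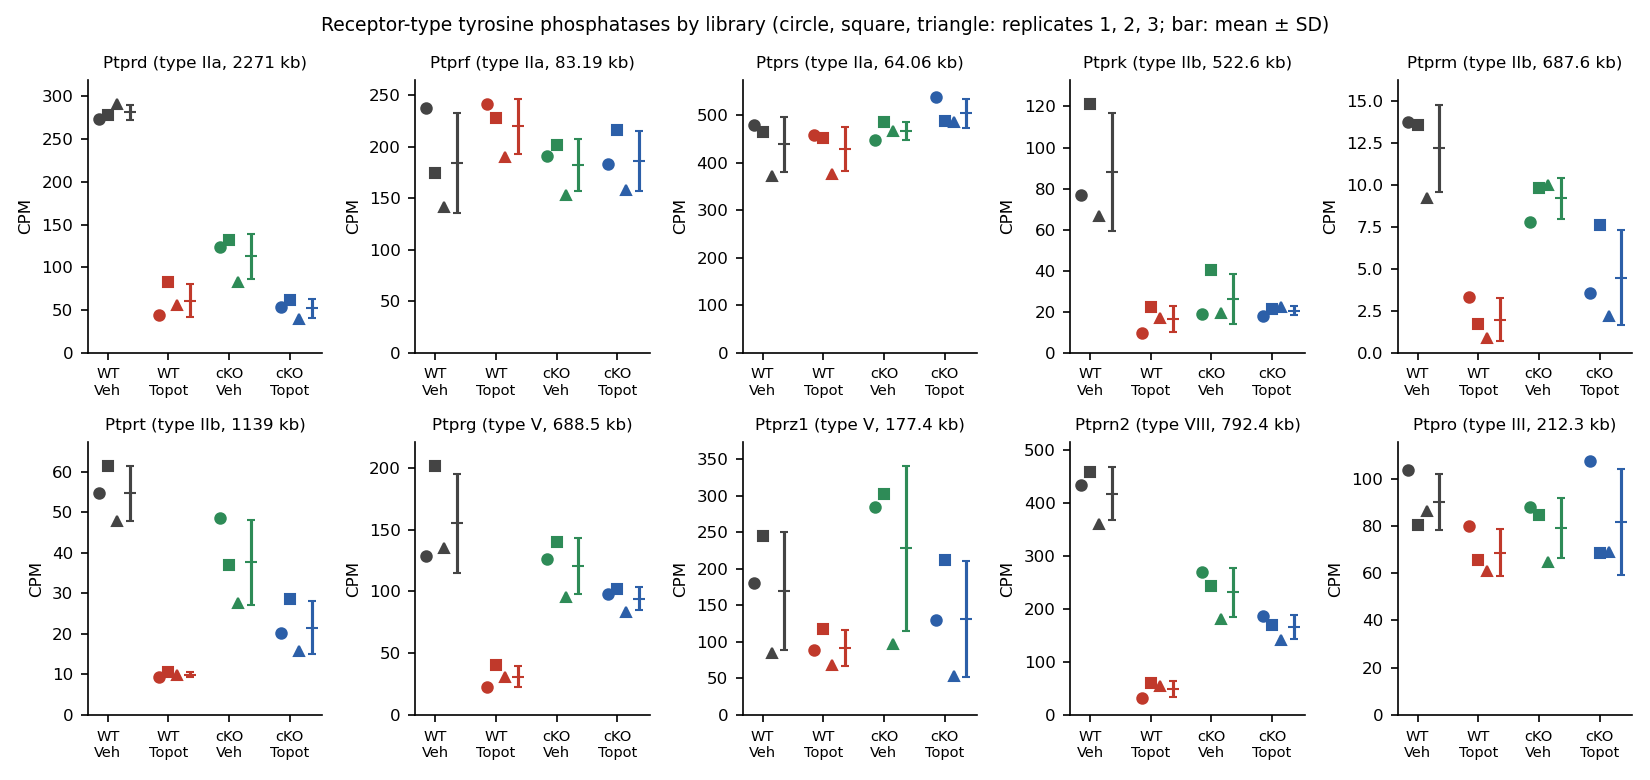
Expression of the 10 phosphatase genes in each library, in CPM on linear axes that start at 0, by group. Symbols are the 3 replicates and bars the mean ± SD, and in the 6 genes over 500 kb every WT-Topot library lies below every WT-Veh library, whereas the libraries of Ptprf and Ptprs overlap.

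Topotecan lowered 6 of the 10 members in WT cells and raised 0. At an FDR of 0.01, edgeR's quasi-likelihood test called 2.04% of all genes lower and 0.682% higher in this comparison. The 6 are Ptprd, Ptprk, Ptprm, Ptprt, Ptprg and Ptprn2, with declines from 4.58-fold to 8.45-fold. Deletion of Top1 alone lowered 1 of 10 members, Ptprd, where 0.126% of all genes were called lower, and raised 0, where 0.046% were called higher. With the replicate block 7 members were lower after topotecan (5% of all genes), Ptprz1 being the addition, and 3 after deletion (2.95%), namely Ptprd, Ptprk and Ptprn2. Libraries of WT-Topot lay below all those of WT-Veh in 7 members, against 13.2% of the 13720 genes averaging 1 CPM or more, and libraries of Top1 cKO-Veh below those of WT-Veh in 3 members, against 10.3%. The WT-Veh libraries serve both comparisons. In these 2 comparisons 0 members were higher at an unadjusted p under 0.05 as well, beside 1324 and 897 of the 13720 genes. At that p 7 members were lower after topotecan and 4 after deletion, beside 1609 and 1051 of these genes.

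Among the type IIa phosphatases, which organise presynaptic terminals, Ptprd declined and its relatives Ptprf and Ptprs were not called in any comparison. Ptprd had 274.1, 278.3 and 291.4 CPM in WT-Veh and 44.6, 83 and 55.7 in WT-Topot, and in the Top1 cKO groups 124.0, 131.9 and 83.2 with vehicle and 53.8, 61.8 and 39.8 with topotecan. The WT-Veh libraries were close together and far above all others, those of Top1 cKO-Veh were intermediate, the lowest of them just above the highest WT-Topot library, and the 2 topotecan groups overlapped. Ptprd was 4.58-fold lower in WT-Topot than in WT-Veh (log2 fold change −2.19, SE 0.215, adjusted p = 1.87e-06). It was 2.48-fold lower in Top1 cKO-Veh (−1.31, SE 0.196, adjusted p = 0.00639). That call was lost without replicate 2 of WT-Veh (adjusted p = 0.0293), without replicate 2 of Top1 cKO-Veh (adjusted p = 0.0149) and with a filter on low counts (adjusted p = 0.023), at nearly the same fold change.

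When topotecan was added to Top1 cKO cells, Ptprd had the smallest p of the members. Its Top1 cKO-Topot libraries, at 39.8 to 61.8 CPM, lay below the lowest Top1 cKO-Veh library of 83.2 CPM. The difference was 2.17-fold (−1.12, SE 0.223) with an adjusted p of 0.0847, and with the replicate block the adjusted p was 1.54e-12. WT-Topot and Top1 cKO-Topot differed by 0.24 (SE 0.232, adjusted p = 0.868), with an interval of 2 standard errors from −0.22 to 0.71. In the annotation a shorter gene model with the same symbol lies inside Ptprd on the same strand, and an antisense transcript shares 7 exon bases with it.

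Ptprf, known as LAR, had 237.3, 174.0 and 141.7 CPM in WT-Veh and 241.6, 227.8 and 189.7 in WT-Topot, and in the Top1 cKO groups 191.2, 201.3 and 153.3 with vehicle and 183.6, 216.5 and 157.8 with topotecan. All 4 groups overlapped. Ptprs, a receptor for heparan and chondroitin sulfate proteoglycans, had 479.0, 465.5 and 372.6 CPM in WT-Veh and 459.4, 453.1 and 375.6 in WT-Topot, and in the Top1 cKO groups 448.9, 486.4 and 468.0 with vehicle and 538.9, 487.5 and 486.1 with topotecan. Only the Top1 cKO-Topot libraries stood above those of WT-Veh, by 0.22 on the log2 scale (adjusted p = 0.716). The log2 fold change in WT-Topot was 0.26 for Ptprf (adjusted p = 0.762, interval of 2 standard errors −0.14 to 0.65). For Ptprs it was −0.03 (adjusted p = 1, interval −0.37 to 0.31), and 0.05 when libraries were scaled by their totals alone. After deletion Ptprf differed by −0.02 (interval −0.43 to 0.39) and Ptprs by 0.09 (interval −0.24 to 0.42).

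The type IIa counts were also expressed as shares, which depend on all 3 genes. Ptprd held 31.4 ± 4.34% of the counts of the 3 genes in WT-Veh (SD, n = 3), 8.6 ± 2.46% in WT-Topot, and in the Top1 cKO groups 14.7 ± 2.51% with vehicle and 6.94 ± 1.12% with topotecan. Ptprs held 48.4 ± 2.24, 60.5 ± 1.15, 61.5 ± 4.27 and 68.1 ± 3.9% in the same order. Every WT-Veh library had a higher share of Ptprd (27.7 to 36.2%) than any library of the other groups. The sum of the 3 genes was 904.6 ± 93 CPM in WT-Veh and 710.2 ± 77.8 CPM in WT-Topot.

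The 3 type IIb members, which bind their own kind on neighbouring cells, fell after topotecan in WT cells, whereas Ptpru, a type IIb gene outside the 10, was called higher. Ptprk had 76.9, 121.0 and 66.8 CPM in WT-Veh and 9.72, 22.3 and 16.7 in WT-Topot, and in the Top1 cKO groups 18.8, 40.5 and 19.5 with vehicle and 17.9, 21.3 and 22.3 with topotecan. The WT-Veh libraries lay above all others, and the remaining groups overlapped. Ptprk was 5.39-fold lower in WT-Topot (−2.43, SE 0.29, adjusted p = 1.79e-05) and 4.24-fold lower in Top1 cKO-Topot (−2.09, SE 0.258, adjusted p = 3.57e-05) than in WT-Veh. In Top1 cKO-Veh it had 3.28-fold less (−1.72, SE 0.307), the largest difference of a member after deletion, with an adjusted p of 0.0159. This passed the threshold with the replicate block (adjusted p = 2.4e-21) and on leaving out any 1 of 5 libraries, WT-Veh replicate 2 being the exception. WT-Topot and Top1 cKO-Veh differed by −0.72 for Ptprk (SE 0.342, adjusted p = 0.41, interval −1.41 to −0.04).

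Ptprt, found mainly in the nervous system, responded to the drug more than to the deletion. It had 54.7, 61.4 and 47.8 CPM in WT-Veh and 9.38, 10.6 and 9.85 in WT-Topot, and in the Top1 cKO groups 48.5, 36.9 and 27.6 with vehicle and 20.3, 28.6 and 15.7 with topotecan. WT-Topot was the lowest group, with libraries apart from every other group, and Top1 cKO-Veh overlapped WT-Veh. The decline was 5.46-fold in WT-Topot (−2.45, SE 0.249, adjusted p = 2.76e-06) and 2.48-fold in Top1 cKO-Topot (−1.31, SE 0.259, adjusted p = 0.00448), the latter lost without replicate 2 of WT-Veh (adjusted p = 0.0238) and with a filter on low counts (adjusted p = 0.0115). In Top1 cKO-Veh the change was −0.53 (SE 0.243, adjusted p = 0.544). WT-Topot was below Top1 cKO-Veh by 1.92 on the log2 scale (−1.92, SE 0.275, adjusted p = 0.000515).

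Ptprm, a homophilic adhesion receptor, was the member with the fewest counts. It had 13.8, 13.6 and 9.21 CPM in WT-Veh and 3.35, 1.72 and 0.856 in WT-Topot, and in the Top1 cKO groups 7.82, 9.85 and 10 with vehicle and 3.58, 7.64 and 2.19 with topotecan. These values rest on 16 to 47 counts per library in WT-Veh and on 2 to 10 in WT-Topot. The 2 topotecan groups overlapped, and both lay below the vehicle groups. Ptprm was 5.95-fold lower in WT-Topot than in WT-Veh (−2.57, SE 0.465, adjusted p = 0.00149). In Top1 cKO-Veh it differed by −0.41 (SE 0.334, adjusted p = 0.941), and the interval of −1.08 to 0.25 includes both a decline and no change.

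Of the type V phosphatases Ptprg fell after topotecan in WT cells, and Ptprz1 was called under some alternatives only. Ptprg, a contactin receptor, had 129.0, 201.2 and 134.8 CPM in WT-Veh and 22.8, 40.1 and 30.4 in WT-Topot, and in the Top1 cKO groups 125.9, 139.7 and 95.7 with vehicle and 97.6, 101.6 and 83.5 with topotecan. WT-Topot stood alone at the bottom, with its highest library at less than the lowest of every other group. Ptprg was 4.95-fold lower in WT-Topot than in WT-Veh (−2.31, SE 0.242, adjusted p = 3.76e-06), 3.88-fold lower than in Top1 cKO-Veh (−1.96, SE 0.23, adjusted p = 0.000104) and 3.01-fold lower than in Top1 cKO-Topot (−1.59, SE 0.218, adjusted p = 5.43e-05). Deletion changed it by −0.36 (SE 0.216, adjusted p = 0.77, interval −0.79 to 0.07), and topotecan in Top1 cKO cells by −0.35 (SE 0.188, adjusted p = 1). The 2 annotated starts of Ptprg were counted together.

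Ptprz1, whose secreted form is the proteoglycan phosphacan and which is known from glial cells and their precursors, had a wide spread within groups. It had 181.1, 245.0 and 84.7 CPM in WT-Veh and 89.5, 117.4 and 68.1 in WT-Topot, and in the Top1 cKO groups 283.9, 301.8 and 97.7 with vehicle and 129.5, 211.5 and 52.9 with topotecan. In each group replicate 2 was highest and replicate 3 lowest, and the groups overlapped. The change in WT-Topot was −0.89 (SE 0.282, adjusted p = 0.0881), and −0.83 with an adjusted p of 1.63e-06 with the replicate block. Leaving out 1 library at a time gave −1.21 (adjusted p = 2.85e-05) without replicate 3 of WT-Veh to −0.54 (adjusted p = 0.416) without replicate 2 of WT-Veh. In Top1 cKO cells topotecan changed it by −0.78 (SE 0.395, adjusted p = 1) and, with the block, by −0.81 (adjusted p = 7.33e-11), and leaving out 1 library gave −1.31 to −0.41. Deletion changed it by 0.42 (SE 0.366, adjusted p = 0.981), and by 0.11 to 0.78 on leaving out 1 library.

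Glial markers also varied between these libraries. The summed astrocyte markers were 2756, 1193 and 937.0 CPM in WT-Veh and 662.5, 342.9 and 314.3 in WT-Topot, and in the Top1 cKO groups 2999, 1159 and 870.8 with vehicle and 1007, 681.1 and 309.1 with topotecan. Of these 6 genes 2 were lower after topotecan in WT cells, Gfap by 2.54 (−2.54, adjusted p = 0.000174) and Slc1a3 by 1.52 (−1.52, adjusted p = 0.00106), and 0 were higher. With the replicate block 4 were lower. The summed oligodendrocyte lineage markers were 116.7, 155.2 and 98.5 CPM in WT-Veh and 139.4, 152.0 and 128.5 in WT-Topot, and in the Top1 cKO groups 167.0, 194.6 and 141.3 with vehicle and 235.0, 297.2 and 136.0 with topotecan. They had the same highest and lowest replicate as Ptprz1 in every group, but 0 of their 8 genes were called after topotecan in WT cells, with 1 lower and 2 higher at an unadjusted p under 0.05 and 1 lower and 1 higher with the block. Of 6 radial glia markers 1 was higher after topotecan, Nes (1.22, adjusted p = 0.00167), and 2 with the block, and their sum was 209.6 to 562.3 CPM in WT-Veh and 574.2 to 1018 CPM in WT-Topot. The part of these cells in the values of Ptprz1 was not tested.

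**Figure D2:**
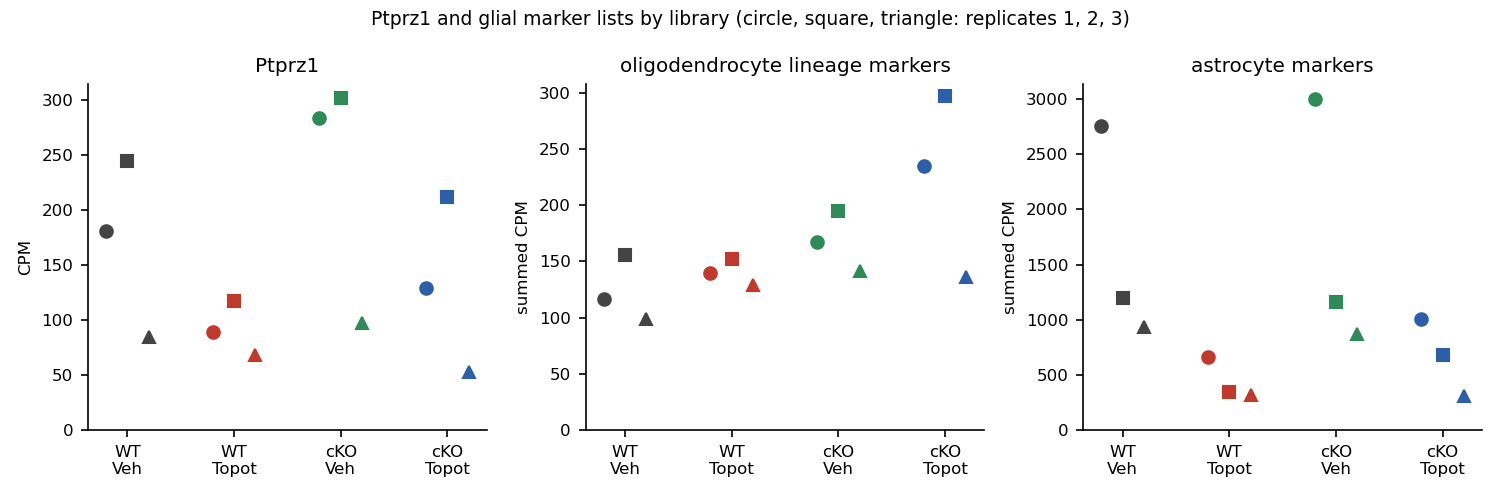
Ptprz1 (left, CPM) beside the summed CPM of 8 oligodendrocyte lineage markers (middle) and 6 astrocyte markers (right), 1 symbol per library, by group. Replicate 3 (triangle) is lowest for Ptprz1 and for both marker sets in all 4 groups. Replicate 2 (square) is highest for Ptprz1 and the oligodendrocyte lineage markers in each group, whereas for the astrocyte markers replicate 1 (circle) is highest.

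Ptprn2, also called phogrin, had the largest decline of the members after topotecan. It had 433.9, 459.3 and 361.7 CPM in WT-Veh and 31.5, 61.3 and 55.2 in WT-Topot, and in the Top1 cKO groups 269.8, 243.9 and 180.9 with vehicle and 186.8, 171.0 and 140.8 with topotecan. WT-Veh was above and WT-Topot below every other library, and the 2 Top1 cKO groups overlapped in between. Ptprn2 was 8.45-fold lower in WT-Topot than in WT-Veh (−3.08, SE 0.23, adjusted p = 6.57e-08). In Top1 cKO-Veh it had 1.8-fold less (−0.85, SE 0.188), with an adjusted p of 0.0503 without and 3.62e-12 with the replicate block. Against WT-Veh it was 2.48-fold lower in Top1 cKO-Topot (−1.31, SE 0.184, adjusted p = 0.000131). Topotecan-treated WT cells had less Ptprn2 than topotecan-treated Top1 cKO cells, by 3.36-fold (−1.75, SE 0.216, adjusted p = 1.87e-05). A miRNA gene, Mir153, lies inside Ptprn2 on the same strand and shares no exon base with it.

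Ptpro, the type III member, had 103.6, 80.6 and 86.4 CPM in WT-Veh and 79.8, 65.5 and 60.8 in WT-Topot, and in the Top1 cKO groups 88, 84.7 and 64.6 with vehicle and 107.5, 68.4 and 69.1 with topotecan. The WT-Topot libraries lay just below those of WT-Veh, and the other groups overlapped both. The change in WT-Topot was −0.39 (SE 0.196, adjusted p = 0.436, interval −0.78 to 0.01). After deletion it was −0.19 (SE 0.202, adjusted p = 0.981).

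**Figure D3:**
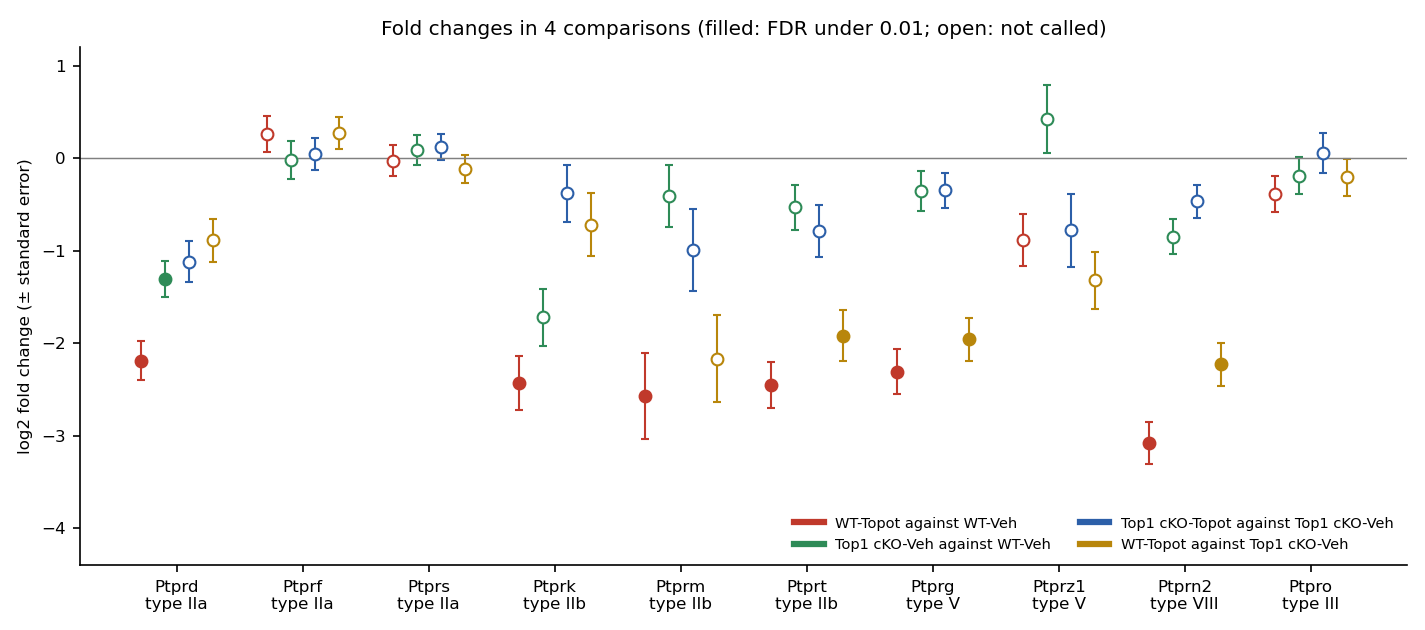
Log2 fold changes of the 10 genes with standard errors in 4 comparisons, where filled symbols passed an FDR of 0.01. WT-Topot against WT-Veh (red) lies between −3.08 and −2.19 for the 6 called genes, Top1 cKO-Veh against WT-Veh (green) reaches −1.72 at Ptprk and is called at Ptprd alone, and no member is called for topotecan in Top1 cKO cells (blue).

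The members called without the replicate block were those with the longest span. All 6 members over 500 kb were lower in WT-Topot, with a median log2 fold change of −2.44, and 0 of the 4 under 500 kb, with a median of −0.21. Among all 180 genes over 500 kb that averaged 1 CPM or more, 116 were lower and the median was −2.11. With the block 140 of the 180 were lower, as were the 6 long members and 1 of the 4 shorter ones, Ptprz1, which is shorter than the uncalled Ptpro. The median of all 13720 genes at this level was 0.03. After deletion the 6 long members had a median of −0.69 and 1 was called, beside a median of −0.57 and 8 called of the 180 long genes. With the replicate block 3 of the 6 and 74 of the 180 were lower. The 4 shorter members had a median of 0.04. Whether the long phosphatases differ from other genes of their size was not tested.

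None of the 11 other receptor-type and 17 non-receptor tyrosine phosphatase genes spans over 500 kb, but some are longer than members under that limit. The longest, Ptprr with 256.7 kb, an inhibitor of MAP kinases, was lower in WT-Topot (−1.48, SE 0.223, adjusted p = 0.000218) and changed by −1.21 after deletion (SE 0.229, adjusted p = 0.0223, and 4.74e-09 with the replicate block). Ptpru, a type IIb gene of 69.83 kb, was higher in WT-Topot (1.23, SE 0.234, adjusted p = 0.00246), a call lost without replicate 2 of WT-Topot (adjusted p = 0.0274). It is the only type IIb gene under 500 kb, and its change had the opposite sign to those of Ptprk, Ptprm and Ptprt. Of the 17 non-receptor genes 0 were called lower and 0 higher in WT-Topot by the quasi-likelihood test, 1 lower and 1 higher at an unadjusted p under 0.05, and 1 lower with the block. The most expressed of them, Ptpn11 (SHP2), changed by 0.05 (SE 0.189, adjusted p = 1). Among those averaging 1 CPM or more, the median was −0.00 over 13 non-receptor genes and −0.17 over 7 other receptor-type genes. Of the 11 other receptor-type genes the block called 2 lower and 1 higher in WT-Topot.

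**Figure D4:**
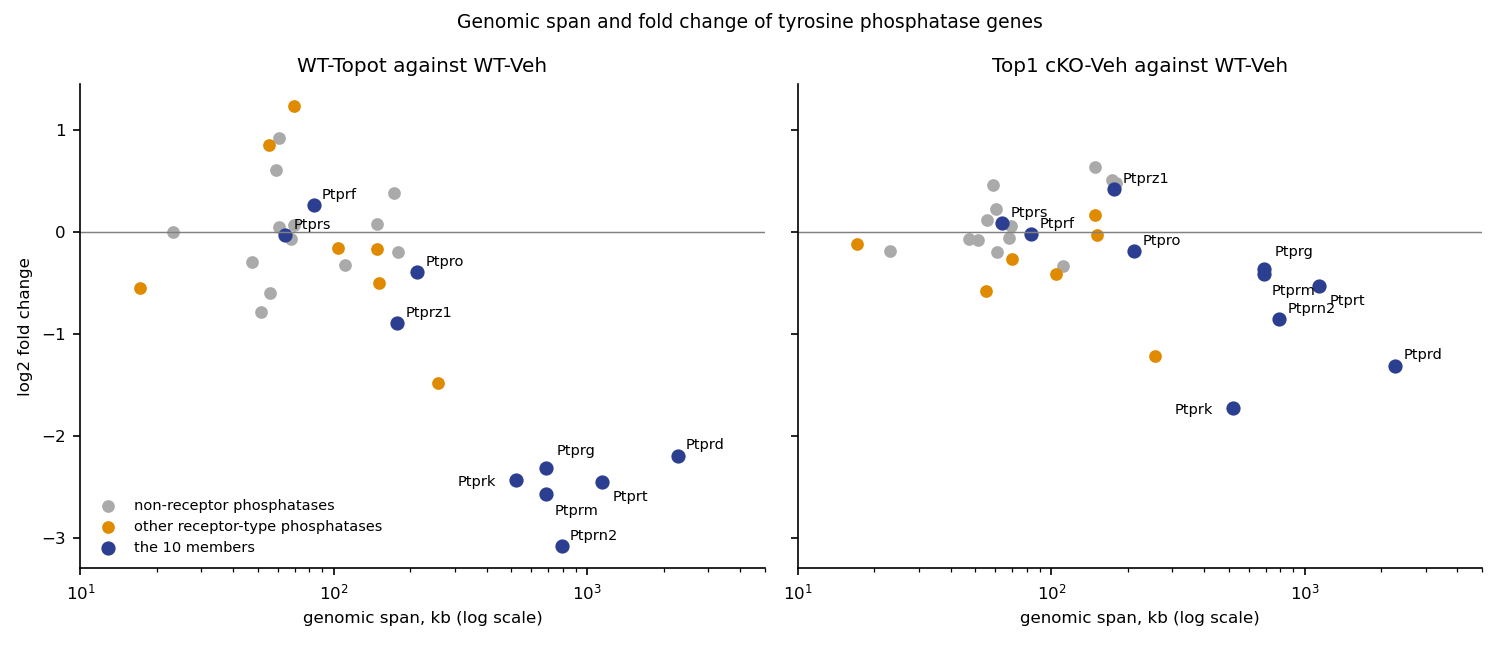
Genomic span (kb, log axis) against log2 fold change of tyrosine phosphatase genes, after topotecan in WT cells (left) and after deletion of Top1 (right). Blue points are the 10 members, orange and grey points the other receptor-type and the non-receptor genes that averaged 1 CPM or more, and the 6 members over 500 kb lie at −2.19 or lower on the left and between −0.36 and −1.72 on the right.

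In Top1 cKO cells topotecan called none of the 10 members by the quasi-likelihood test, where 0.00837% of all genes were called lower and 0% higher. At an unadjusted p under 0.05, 4 members were lower and 0 higher, beside 591 lower and 348 higher of the 13720 genes averaging 1 CPM or more, and with the replicate block 4 were lower (1.74% of all genes), namely Ptprd, Ptprt, Ptprz1 and Ptprn2. The blocked changes were −0.77 for Ptprt (adjusted p = 0.00265) and −0.46 for Ptprn2 (adjusted p = 0.000402). The 6 long members had a median of −0.63 here, and the 180 genes over 500 kb a median of −0.68. DESeq2's Wald test and edgeR's exact test each called Ptprd lower (adjusted p = 0.00365 and 0.00929). Without replicate 3 of Top1 cKO-Veh 2 members were called, Ptprd (−1.29, adjusted p = 9.26e-05) and Ptprz1 (−1.14, adjusted p = 0.00204).

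Whether the drug acted differently in the 2 genotypes was tested by the interaction over all 12 libraries, given as the log2 effect of topotecan in Top1 cKO minus that in WT cells. It was called for 2 members, where 0.398% of all genes had a positive and 0.0377% a negative call. These were Ptprn2, at 2.60 (SE 0.304, adjusted p = 0.000133), and Ptprg, at 1.95 (SE 0.314, adjusted p = 0.0024). In both, topotecan lowered the gene more in WT than in Top1 cKO cells. For Ptprk the term was 2.04 (SE 0.455, adjusted p = 0.0257), for Ptprt 1.65 (SE 0.368, adjusted p = 0.0252) and for Ptprd 1.07 (SE 0.317, adjusted p = 0.131). These 3 passed with the replicate block, at adjusted p of 8.12e-07, 7.69e-05 and 0.00026, which gave 5 members where 2.44% of all genes were called positive. Ptprm had 1.58 (SE 0.657, adjusted p = 0.456), and 0.92 to 2.14 on leaving out 1 library. The term lay between −0.22 and 0.44 in the 4 shorter members, none of which was called. Its median was 1.80 over the 6 long members and 1.26 over the 180 genes over 500 kb averaging 1 CPM or more. Of those 180 genes 25 were called positive and 0 negative, and 83 were positive with the block.

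Set against WT-Veh, Top1 cKO-Topot had 4 members lower (1.21% of all genes), Ptprd, Ptprk, Ptprt and Ptprn2, and 0 higher (0.473%). With the replicate block Ptprm (−1.45, adjusted p = 0.00368) and Ptprg (−0.67, adjusted p = 0.000959) were lower as well, at 4.02% of all genes. Without it Ptprm changed by −1.39 (SE 0.441, adjusted p = 0.0916) and Ptprg by −0.70 (SE 0.208, adjusted p = 0.0703). Leaving out 1 library gave −2.06 to −1.09 for Ptprm. Compared with deletion, topotecan in WT cells gave lower levels of 3 members (1.23% of all genes) and higher levels of 0 (0.293%). The 3 were Ptprt, Ptprg and Ptprn2, the last at 4.7-fold (−2.23, SE 0.235, adjusted p = 3.52e-05). The block added Ptprd (−0.90, adjusted p = 1.5e-05), Ptprm (−2.18, adjusted p = 0.000126) and Ptprz1 (−1.25, adjusted p = 6.33e-09), at 4.8% of all genes. Without replicate 3 of Top1 cKO-Veh the count was 6, and without replicate 2 of WT-Topot or replicate 1 of Top1 cKO-Veh it was 5. Between the 2 topotecan groups Ptprg and Ptprn2 were lower in WT cells (2 members, 1.46% of all genes) and 0 were higher (1.03%). Ptprt was added with the block (−1.11, adjusted p = 0.000737, 4.6% of all genes), and without replicate 3 of Top1 cKO-Topot the count was 4. Ptprk was not called between any 2 of the 3 groups that had the drug, the deletion or both. Of the 180 genes over 500 kb averaging 1 CPM or more, 78 were lower and 1 higher in Top1 cKO-Topot against WT-Veh. In WT-Topot 76 of them were lower against Top1 cKO-Veh and 31 against Top1 cKO-Topot, and 0 were higher in either.

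The proteins that the members bind were examined as lists. Of 13 ligands of type IIa phosphatases 3 fell in WT-Topot and 0 rose, with a list median of −0.05, and the block called 3 lower and 1 higher. The 3 were Ntrk3, the TrkC receptor (−1.35, SE 0.271, adjusted p = 0.00374), Il1rapl1 (−3.05, SE 0.522, adjusted p = 0.000882) and Lrfn5, an adhesion protein also called SALM5 (−2.02, SE 0.234, adjusted p = 1.2e-05). These 3 span 386, 1375 and 334.8 kb, and the other 10, which include the Slitrk genes, at most 148.4 kb. The value of Il1rapl1 rests on 3 to 6 counts per WT-Topot library. By the quasi-likelihood test without the block Lrfn5 alone was called after deletion (−1.53, SE 0.231, adjusted p = 0.00639), a call lost without replicate 2 of either group (adjusted p = 0.0289 and 0.0162). With the block 2 of the 13 were lower and 1 higher. The call of Ntrk3 was lost without replicate 3 of WT-Topot (adjusted p = 0.014). Of the 7 cytoplasmic partners of type IIa, Ppfia2, which encodes liprin-α2, fell (−2.03, SE 0.252, adjusted p = 2.78e-05), with 468.2 kb the longest of them, and 0 rose. The block called 2 lower, and the list median was −0.24. After deletion 0 of the 7 were called, and 1 was lower both at an unadjusted p under 0.05 and with the block.

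Ligands of type V phosphatases included the contactins, axonal adhesion proteins. Topotecan lowered 6 of these 10 genes in WT cells and raised 0, with a median of −1.36, and 7 were lower with the block. Of the contactins, Cntn1 changed by −1.15 (SE 0.166, adjusted p = 0.000148), Cntn3 by −1.62 (SE 0.354, adjusted p = 0.00794), Cntn4 by −2.77 (SE 0.511, adjusted p = 0.00181) and Cntn5 by −2.56 (SE 0.575, adjusted p = 0.00975). The calls of Cntn3 and Cntn5 were lost without replicate 1 of WT-Topot (adjusted p = 0.0124 and 0.0197) and on scaling by total counts alone (adjusted p = 0.0145 and 0.0147), and that of Cntn5 also without replicate 2 of either group (adjusted p = 0.042 and 0.0567). Tnr, the matrix protein tenascin-R, changed by −1.58 (SE 0.276, adjusted p = 0.00108), and Nrcam by −1.85 (SE 0.19, adjusted p = 2.99e-06). The change was −3.38 for Cntn4 without replicate 2 and −3.52 for Cntn5 without replicate 3 of WT-Topot. Per WT-Topot library Cntn4 had 1 to 10 counts and Cntn5 had 2 to 8. The 6 genes span 187.4 to 1244 kb. Cntn6, the other contactin of the list, spans 370.6 kb and was not called (−0.16, SE 0.606, adjusted p = 1). It was chosen after its values were seen. None of the 10 was called after deletion by the quasi-likelihood test. At an unadjusted p under 0.05, 6 were lower and 2 higher. At that p 1051 of the 13720 genes averaging 1 CPM or more were lower and 897 higher. The blocked fit called 5 of the 10 ligands lower and 1 higher.

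Of 5 partners and substrates of types IIb and III, 0 were called in WT-Topot, with 2 lower and 1 higher at an unadjusted p under 0.05 and 2 lower with the block. The most expressed, Ctnnb1 (β-catenin), changed by 0.29 (SE 0.15, adjusted p = 0.438). Among 7 genes of dense-core vesicles, the organelle of Ptprn2, 2 fell and 0 rose, and 5 were lower both with the block and at an unadjusted p under 0.05. The 2 were Scg2, secretogranin II (−2.27, SE 0.295, adjusted p = 4.57e-05), and Pcsk1, a prohormone convertase (−1.67, SE 0.239, adjusted p = 0.000133). Scg2 had 1312 to 3557 CPM in the WT-Veh libraries, and without replicate 2 of that group its change was −1.64, still called. Scg2 and Pcsk1 are short, with spans of 5.422 and 42.67 kb. The list median was −0.42, and none of the 7 was called after deletion, with 2 lower and 1 higher at an unadjusted p under 0.05 and 2 lower with the block. Of the 13720 genes averaging 1 CPM or more, 1609 were lower and 1324 higher at that p in WT-Topot. After deletion 1051 were lower and 897 higher.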

How the data were processed

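Poly(A) RNA of 12 cultures was sequenced. The authors filtered reads (TagDust), used TopHat for alignment to mm9, removed rRNA reads and deposited raw counts over RefSeq exons per gene symbol, without normalization. The counting program, its use of strand and software versions are not given in the sources used here, so that reads of overlapping genes may be shared. Groups and replicate numbers came from the labels, and the study describes n = 3 cultures. From these counts each comparison was fitted on its 6 libraries with the quasi-likelihood test of edgeR 4.0.16 (R 4.3.3), with TMM scaling, no filter, Benjamini-Hochberg adjustment over all 23893 genes and an FDR of 0.01. The interaction used all 12 libraries. DESeq2 1.42.0 and edgeR's exact test were alternatives, and the code was tested on simulated data. Intervals are 2 standard errors either way.

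Deviations from group means over 13720 genes correlated at 0.261 to 0.485 in 18 pairs of libraries with the same replicate number and at −0.384 to −0.0494 in 36 other pairs. Deviations cancel out within each group, so positive values in the first set push those of the second to negative values. These ranges are therefore not separate evidence. The pairing comes from the numbers in the labels and the values, and what a number stands for is not stated. Blocked values of the 10 members, and blocked counts of the other lists for WT-Topot and Top1 cKO-Veh against WT-Veh, are given where they change a call that the text describes. A blocked comparison between groups fits both the groups and the replicate numbers to 6 libraries. Little of a gene's own spread is then left, and its p-value rests mostly on variance pooled over all genes. Very small blocked p-values therefore do not show how precisely that gene was measured. Where cultures share a preparation, p-values measure only the spread between these samples.

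The genes and lists were chosen with earlier results of these data known. Genes named with values are the 10 members, Top1 and a choice from each list of phosphatases, ligands, partners or vesicle genes. The choice was the genes passing the threshold in WT-Topot or Top1 cKO-Veh against WT-Veh, or else the most expressed gene. Cntn6 was added after its values were seen. From the marker lists only called astrocyte and radial glia genes are named. Genomic spans are from GENCODE vM1. Of the symbols 21013 matched directly, 1104 through synonyms and 1776 not. Start site windows are from RefSeq, GRCm38.p6.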

Additional observations from a re-analysis of the deposited data

Results flagged for a closer look

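In 2 members the effect of topotecan differed between the genotypes by a test of the difference itself, the interaction over all 12 libraries. For Ptprn2 the log2 effect in Top1 cKO minus that in WT cells was 2.60 (SE 0.304, adjusted p = 0.000133 by edgeR's quasi-likelihood test), from an effect of −3.08 in WT and −0.47 in Top1 cKO cells. For Ptprg it was 1.95 (SE 0.314, adjusted p = 0.0024), from −2.31 in WT and −0.35 in Top1 cKO cells. In both genes every WT-Topot library was below every WT-Veh library. The 2 Top1 cKO groups overlapped, but with libraries paired by replicate number Ptprn2 was lower after topotecan in Top1 cKO cells too (−0.46, adjusted p = 0.000402). A positive interaction was called in 25 of the 180 genes over 500 kb averaging 1 CPM or more, these 2 included. It is thus not particular to them.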

How the results depend on the processing

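The 6 members called lower after topotecan in WT cells numbered 6 to 7 under every alternative, leaving out a replicate included. Of 1089 alternative log2 fold changes of members, 993 kept direction and call, 64 became called, 5 lost their call and 27 changed sign. Members lower in Top1 cKO-Veh against WT-Veh, 1 as reported, numbered 3 with the Wald test, 0 with a filter on low counts, 3 with the replicate block, 2 with the exact test, 2 with a fit on 12 libraries, 2 at an FDR of 0.05 and 0 to 2 on leaving out a replicate. For topotecan in Top1 cKO cells (0 reported) they numbered 1 with the Wald and 1 with the exact test, 4 with the block and 0 to 2 on leaving out a replicate. For WT-Topot against Top1 cKO-Veh (3 reported) they numbered 5 with the Wald test, 6 with the block, 6 at an FDR of 0.05 and 3 to 6 on leaving out a replicate, and between the topotecan groups (2 reported) 2 to 4. For Top1 cKO-Topot against WT-Veh (4 reported) they numbered 6 with the block and 3 to 4 on leaving out a replicate. Interaction calls (2 reported) numbered 4 with the Wald test, 5 with the block, 4 at an FDR of 0.05 and 2 to 3 on leaving out a replicate. Without replicate 3 of every group, which had the fewest counts and the lowest astrocyte markers (chosen after seeing the data), the counts were 3 for deletion, 2 for topotecan in Top1 cKO cells, 5 for WT-Topot against Top1 cKO-Veh, 4 between the topotecan groups and 4 for the interaction. The share of all genes called was taken only for the fits with and without the block. The other counts therefore show how calls moved, not how the members compare with other genes. The cause of these shifts was not tested.

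Sign changes were confined to uncalled values. Scaling by totals alone, which moved the median of all genes from 0.03 to 0.11 in WT-Topot against WT-Veh, gave 0.05 for Ptprs and 0.07 for Top1. Without replicate 3 of every group Ptprs was −0.01 in Top1 cKO-Veh and Ptprf −0.02 in Top1 cKO-Topot against WT-Veh. The interaction of Ptprz1 was −0.00 with the block. Leaving out 1 replicate gave −0.13 to 0.05 for Ptprs and −0.12 to 0.15 for Top1 in WT-Topot, −0.17 to 0.20 for Ptprf and −0.01 to 0.15 for Ptprs in Top1 cKO-Veh, and −0.12 to 0.25 for Ptprf and −0.90 to 0.02 for Ptprz1 in Top1 cKO-Topot, each against WT-Veh. For topotecan in Top1 cKO cells it gave −0.08 to 0.15 for Ptprf, −0.57 to 0.10 for Ptprk and −0.21 to 0.17 for Ptpro. Between the topotecan groups it gave −0.05 to 0.42 for Ptprd, −0.89 to 0.01 for Ptprz1 and −0.37 to 0.01 for Ptpro, and for the interaction of Ptprz1 −0.43 to 0.46. With the filter on low counts the calls of Ntrk3 (adjusted p = 0.0133), Cntn3 (0.0271) and Cntn5 (0.0225) after topotecan and of Lrfn5 (0.0251) after deletion were lost. Scaling by totals alone also lost Cntn3 (0.0145) and Cntn5 (0.0147). Among the members Ptprm had the fewest counts, 2 to 10 per WT-Topot library, and the largest SE after topotecan in WT cells (0.465).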
